A study of Arabidopsis thaliana with 6 samples.

Results

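In 4-day-old Arabidopsis thaliana seedlings, 62 genes had higher levels 8 h after induction of MUTE than with mock treatment, by at least 1 on a log2 scale, once 13 further genes were set aside by name. In groups set by hand from annotation, 12 of them encode cell wall or secreted proteins, 8 signalling proteins and 5 transport or membrane proteins. A further 11 encode proteins with no known function. The members were chosen on their measured values. A row of the authors' table was taken where FPKM (fragment counts normalized to transcript length and sequencing depth) was at least 1 in 3 or more of the 6 libraries, where the mean log2(FPKM + 1) with estradiol exceeded that with mock by at least 1, and where the lowest estradiol value lay above the highest mock value. Of 33511 rows, 19134 passed the minimum and 75 of these, or 0.392%, met the other criteria. MUTE, SDD1, POLAR, AtRLP17, ERL1, ATICE1, CYC3B, SMR4, AtHsp90.4, ORTH4, TUA3, ATWRKY49 and AT4G01250 were among the 75 and were set aside by name, which left 62. Because the estradiol and mock values chose these genes, their own differences are given below as a description, with no test.

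MUTE is a basic helix-loop-helix (bHLH) transcription factor of the stomatal lineage, the series of epidermal divisions that ends in the pairs of guard cells around each pore. It acts late in that lineage, when a meristemoid (a small self-renewing precursor) stops dividing asymmetrically and becomes a guard mother cell that divides symmetrically. Proteins of the bHLH class bind short DNA motifs called E-boxes, and young stomatal cells signal to their neighbours through secreted peptides and leucine-rich repeat receptors at the cell surface.

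The study compared 3 estradiol with 3 mock libraries of messenger RNA from whole seedlings, each from 40 to 50 pooled seedlings. Seedlings of both groups were homozygous transgenics in the Col-0 background with a MUTE cDNA in the vector pER8, whose constitutively produced chimeric activator binds estradiol and then switches on the inserted cDNA. The estradiol group was kept in liquid medium containing 10 µM estradiol for 8 h and the mock group in medium with DMSO. All 6 libraries carry the construct and 1 group alone received estradiol, so MUTE, the activator and estradiol itself cannot be told apart. The labels do not say whether 1 line or several were used, nor whether replicates were grown and treated separately, so p-values measure the spread between these samples. In whole seedlings, more cells that express a gene and more RNA of it per cell cannot be told apart.

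MUTE stood at 3.31, 1.89 and 1.9 FPKM with mock and 2946, 2964 and 3049 FPKM with estradiol, so every library fitted its label, and RNA from the transgene and from the native gene cannot be told apart. More rows were listed at 0 in estradiol 1 (9514) and estradiol 3 (9182) than elsewhere, where 8559 to 8679 were. Depth, estimated from the steps in which low values move, was 41.5% of that of mock 1 in estradiol 1 and 54.1% in estradiol 3, and 82.7% to 96.9% in the others, with a factor of 2 uncertain in these 2 shallower libraries. By limma on log2(FPKM + 1), 6928 of the 19134 kept genes (36.2%) passed a Benjamini-Hochberg adjusted p of 0.05, 4454 (23.3%) higher and 2474 (12.9%) lower with estradiol. After median-of-ratios scaling the split was 3018 higher and 3422 lower, and after quantile normalization 3449 higher and 3082 lower. The groups were separated, with every estradiol value above every mock value, in 33.7% of kept genes.

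Among the 62 genes, the difference in log2(FPKM + 1) ran from 1.001 to 2.83 with a median of 1.29. It was at least 2 in 3 genes, at least 1.5 in 16 and under 1.1 in 14. Mean levels with estradiol ran from 1.86 to 1647 FPKM with a median of 14.96, and the median with mock was 5.37 FPKM. The members nearest that estradiol median, AT3G14760 and AT3G14560, lay above 70.3% and 70.7% of kept genes in mean level with estradiol. With mock, 16 genes stayed under 2 FPKM and 8 under 1 FPKM in all 3 libraries, while 5 exceeded a mean of 100 FPKM with estradiol. Just inside the threshold lay AT3G23880 at 1.01, AT5G66440 at 1.01 and AT1G11850 at 1.001, and just outside it lay CYP71B23 at 0.9996, AT3G51660 at 0.99 and PDF1 at 0.98. The edge is therefore a cut through a continuous range. The light-harvesting gene CAB2 alone among kept genes had a difference above 1, at 2.34, with overlapping groups.

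**Figure D1:**
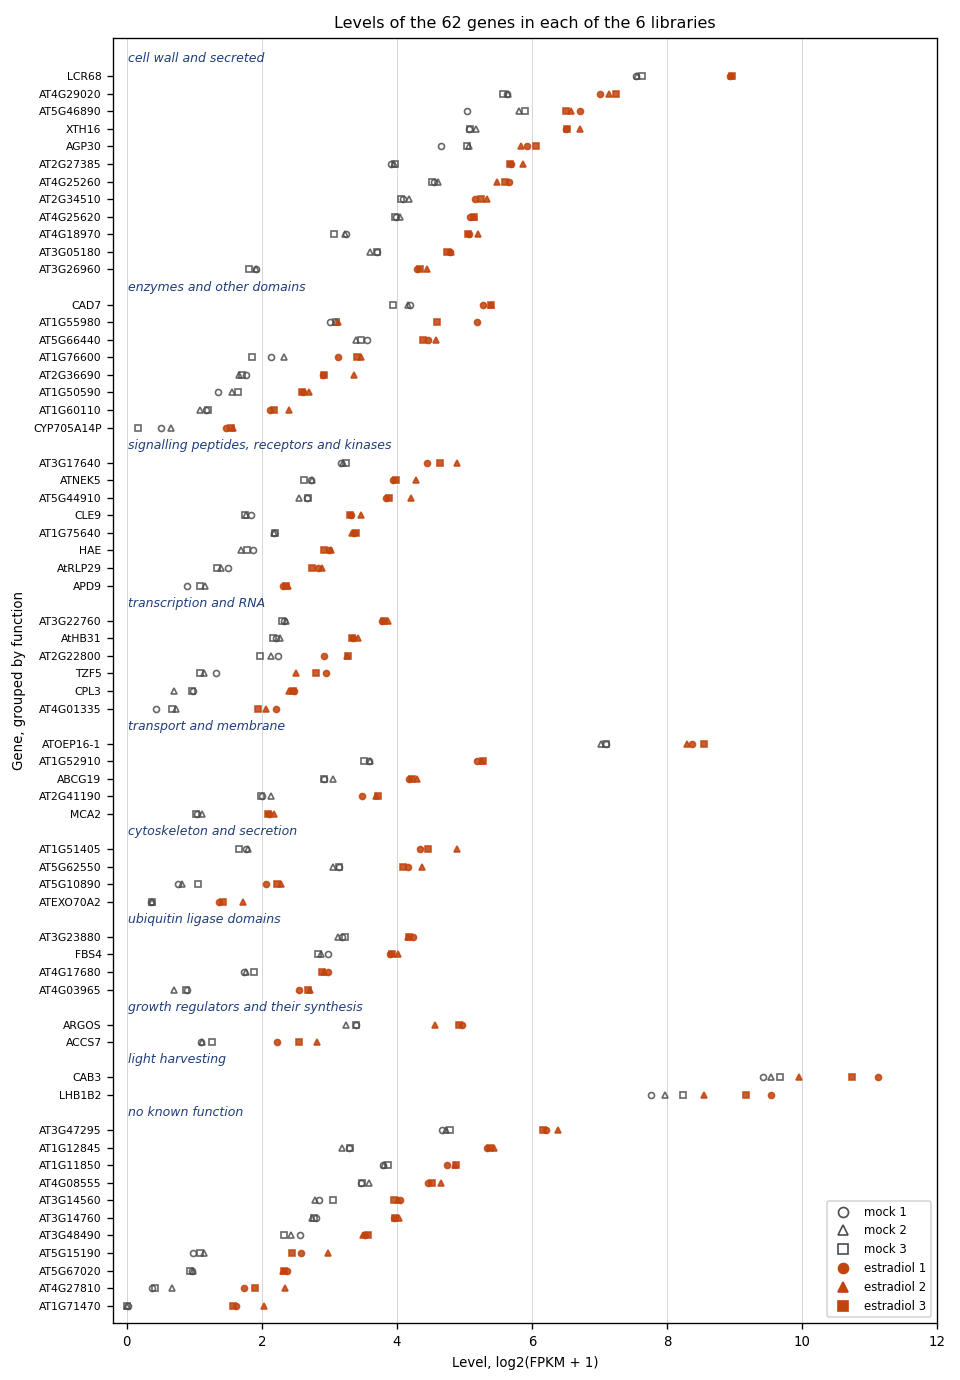
Level of each of the 62 genes on a log2(FPKM + 1) axis in the 3 mock libraries (open grey symbols) and the 3 estradiol libraries (filled orange symbols), with genes grouped by function. No gene's groups overlap, as the rule demands, and mean levels with estradiol span 1.86 to 1647 FPKM.

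The largest difference belonged to AT1G51405, annotated as a myosin-like protein. It stood at 2.4, 2.48 and 2.15 FPKM with mock and 19.4, 28.7 and 21.03 FPKM with estradiol, a difference of 2.83 ± 0.21 (here and below, log2(FPKM + 1), with the SD of libraries within groups, n = 3 in each). Its mock values lay close together, and estradiol 2 was highest. AT5G10890, annotated as a myosin heavy chain-like protein, is of the same group of coiled-coil and cytoskeletal annotations. It measured 0.7, 0.77 and 1.07 FPKM with mock and 3.19, 3.87 and 3.68 FPKM with estradiol, a difference of 1.31 ± 0.13. AT5G62550, a microtubule-associated futsch-like protein by annotation, had a difference of 1.1 ± 0.11. ATEXO70A2 encodes a subunit of the exocyst, the complex that tethers secretory vesicles to the plasma membrane, and measured 0.28, 0.29 and 0.29 FPKM with mock and 1.59, 2.3 and 1.68 FPKM with estradiol. Its mock values were all below 0.3 FPKM, so it was low without induction.

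Genes of the cell wall and of secreted proteins formed the biggest of the hand-set groups, with 12 members. The share of such genes among all kept genes was not counted. Differences ran from 1.02 to 2.48 and mean estradiol levels from 19.6 to 491 FPKM. Both members of the Pollen Ole e 1 and extensin family stood near the top. AT3G26960 measured 2.78, 2.76 and 2.52 FPKM with mock and 18.8, 20.7 and 19.3 FPKM with estradiol, a difference of 2.48 ± 0.06. AT2G27385 measured 14.04, 14.5 and 14.7 FPKM with mock and 50.5, 57.2 and 49.9 FPKM with estradiol, a difference of 1.79 ± 0.08. In both genes the estradiol libraries lay close together. AT4G18970, a lipase of the GDSL family, which includes many secreted esterases, measured 8.45, 8.42 and 7.38 FPKM with mock and 32.7, 35.98 and 32.3 FPKM with estradiol, a difference of 1.93 ± 0.09. A second GDSL lipase, AT3G05180, had a difference of 1.1 ± 0.05. AT4G29020, a glycine-rich protein, was more abundant, at 48.4, 48.98 and 46.7 FPKM with mock and 128, 141 and 151 FPKM with estradiol.

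The promoters of 5 of the 6 genes with the largest differences are printed as the sequence next to the strongest differences. Each line gives the 250 bases before the RefSeq transcription start in TAIR10.1, 5′ to 3′ on the gene's strand, with the E-box motif CANNTG in capitals. The submitters' processing notes name TAIR10, whose nuclear chromosomes TAIR10.1 shares. On the plus strand, AT1G51405 lies at chr1:19057222-19057471 and AT4G03965 at chr4:1889110-1889359. On the minus strand, AT1G12845 lies at chr1:4379608-4379857, AT4G18970 at chr4:10391299-10391548 and AT2G27385 at chr2:11717438-11717687.
AT1G51405: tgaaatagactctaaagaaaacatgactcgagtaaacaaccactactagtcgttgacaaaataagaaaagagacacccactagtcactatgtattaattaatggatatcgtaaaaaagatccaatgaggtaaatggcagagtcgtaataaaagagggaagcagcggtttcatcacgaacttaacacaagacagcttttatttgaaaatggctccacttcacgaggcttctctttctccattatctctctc
AT1G12845: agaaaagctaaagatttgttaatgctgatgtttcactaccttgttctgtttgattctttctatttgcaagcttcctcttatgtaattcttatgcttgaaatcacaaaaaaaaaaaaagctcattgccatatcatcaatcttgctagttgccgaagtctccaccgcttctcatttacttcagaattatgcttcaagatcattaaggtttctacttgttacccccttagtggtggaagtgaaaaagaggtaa
AT4G18970: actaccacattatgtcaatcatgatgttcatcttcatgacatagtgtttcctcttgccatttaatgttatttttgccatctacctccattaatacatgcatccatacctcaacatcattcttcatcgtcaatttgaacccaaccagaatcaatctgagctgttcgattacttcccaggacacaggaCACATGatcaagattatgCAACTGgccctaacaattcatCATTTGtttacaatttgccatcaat
AT4G03965: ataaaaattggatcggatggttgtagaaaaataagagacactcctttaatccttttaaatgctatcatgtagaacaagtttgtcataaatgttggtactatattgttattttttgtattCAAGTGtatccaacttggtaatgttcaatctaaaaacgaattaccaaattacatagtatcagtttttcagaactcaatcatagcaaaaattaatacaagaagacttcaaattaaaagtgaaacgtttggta
AT2G27385: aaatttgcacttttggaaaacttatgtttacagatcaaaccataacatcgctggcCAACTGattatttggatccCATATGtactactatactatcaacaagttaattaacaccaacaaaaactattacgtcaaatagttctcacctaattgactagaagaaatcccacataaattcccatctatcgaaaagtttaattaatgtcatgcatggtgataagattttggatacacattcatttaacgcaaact
AT1G51405 and AT1G12845 hold 0 E-boxes in these 250 bases. AT4G18970 holds 3, at 64, 46 and 25 bases before the start, AT4G03965 holds 1 and AT2G27385 holds 2.

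Over all members, 60 of the 62 could be given a promoter window of 250 bases before to 50 after the start, searched on both strands. The E-box CANNTG was present in 42 of 60 (70%), against 61.7% of all 27443 promoter windows of that length. Its subset the G-box, CACGTG, was present in 3 of 60 (5%), against 7.68%. The W-box core TTGAC, which WRKY transcription factors bind, was present in 37 of 60 (61.7%), against 50.5%. The heat shock element core GAANNTTC was present in 5 of 60 (8.33%), against 11.6%. A match is a description and not a binding site.

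Of the other cell wall and secreted members, LCR68, a small cysteine-rich protein of the defensin-like class, was the most abundant at 185, 187 and 196 FPKM with mock and 486, 491 and 498 FPKM with estradiol. Its values within each group lay within a narrow band. XTH16, an enzyme that cuts and rejoins xyloglucan in the wall, measured 32.6, 35.01 and 32.8 FPKM with mock and 89.9, 104 and 90.3 FPKM with estradiol, a difference of 1.47 ± 0.09. AGP30, an arabinogalactan protein (a heavily glycosylated protein of the cell surface), measured 24.1, 32.4 and 32.02 FPKM with mock and 59.6, 56.3 and 66.1 FPKM with estradiol, with mock 1 below the other mock libraries. AT5G46890, of the lipid-transfer protein superfamily, measured 31.9, 55.1 and 58.8 FPKM with mock and 104, 94.7 and 89.8 FPKM with estradiol. Here mock 1 was again the lowest, well apart from mock 2 and 3. AT4G25260 (an inhibitor-type protein of the invertase and pectin methylesterase family), AT2G34510 (a DUF642 protein) and AT4G25620 (a hydroxyproline-rich glycoprotein) had differences of 1.02, 1.13 and 1.12.

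A further 8 genes encode signalling peptides, receptors, kinases or a phosphatase, with differences from 1.18 to 1.58. CLE9 encodes a small secreted peptide, and with CLE10 it is known in Arabidopsis to limit divisions in the stomatal lineage. CLE9 measured 2.59, 2.41 and 2.38 FPKM with mock and 8.98, 10.11 and 8.87 FPKM with estradiol, a difference of 1.58 ± 0.07. All 3 estradiol values lay above the mock values, as the rule demands of every member. AtRLP29, a leucine-rich repeat receptor-like protein without a kinase domain, measured 1.82, 1.64 and 1.53 FPKM with mock and 6.1, 6.45 and 5.72 FPKM with estradiol, a difference of 1.41 ± 0.08. HAE (HAESA), a receptor kinase known for its role in the shedding of floral organs, measured 2.66, 2.23 and 2.45 FPKM with mock and 6.98, 7.1 and 6.6 FPKM with estradiol. For both, the values within each group differed little beside the gap between groups. AT1G75640, a leucine-rich repeat receptor-like kinase, had a difference of 1.18 ± 0.03, and AT3G17640, a leucine-rich repeat protein, 1.45 ± 0.16. ATNEK5, a kinase of the NIMA-related family, measured 5.66, 5.7 and 5.18 FPKM with mock and 14.3, 18.5 and 14.8 FPKM with estradiol, with estradiol 2 highest. APD9, a protein phosphatase 2C family member, measured 0.85, 1.23 and 1.11 FPKM with mock and 3.99, 4.22 and 4.14 FPKM with estradiol. AT5G44910, with a Toll-interleukin-resistance domain, had a difference of 1.34 ± 0.15.

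The 6 genes of transcription and RNA had differences from 1.04 to 1.57. AT3G22760, whose RefSeq symbol is SOL1, is a CXC-domain protein known in Arabidopsis for a role in division and fate in the stomatal lineage, and had a difference of 1.49 ± 0.04. It stood at 4.02, 4.12 and 3.93 FPKM with mock and 12.7, 13.6 and 13.1 FPKM with estradiol, with a spread within groups that is small beside the gap. TZF5, a tandem CCCH zinc finger protein, measured 1.5, 1.21 and 1.12 FPKM with mock and 6.69, 4.7 and 5.96 FPKM with estradiol, and here estradiol 2 was the lowest of its group. AtHB31, a zinc finger homeodomain protein, measured 3.61, 3.83 and 3.48 FPKM with mock and 9.24, 9.73 and 9.08 FPKM with estradiol, a difference of 1.16 ± 0.05. AT2G22800, a homeodomain-leucine zipper protein with the RefSeq symbol HAT9, had a difference of 1.04 ± 0.17, with estradiol 1 lowest. The row named CPL3 measured 0.97, 0.63 and 0.96 FPKM with mock and 4.57, 4.29 and 4.51 FPKM with estradiol, and 2 loci carry that symbol, so which gene it is cannot be settled from the table. AT4G01335, annotated as related to a subunit of RNA polymerase I initiation, had a difference of 1.46 ± 0.15.

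Both growth-related members are tied to hormones. ARGOS, an auxin-induced gene that promotes organ growth by prolonging cell proliferation, measured 9.55, 8.48 and 9.55 FPKM with mock and 30.2, 22.7 and 29.2 FPKM with estradiol, a difference of 1.47 ± 0.17. ACCS7 (RefSeq ACS7) encodes a 1-aminocyclopropane-1-carboxylate synthase, which makes the precursor of ethylene, and measured 1.15, 1.16 and 1.41 FPKM with mock and 3.69, 6.02 and 4.83 FPKM with estradiol. Estradiol 2 was the lowest estradiol library for ARGOS and the highest for ACCS7.

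The 5 transport and membrane genes had differences from 1.06 to 1.67. ATOEP16-1, a channel of the outer plastid envelope, was the most abundant of them at 136, 129 and 137 FPKM with mock and 331, 313 and 373 FPKM with estradiol. AT1G52910, a DUF1218 protein, measured 11.04, 11.2 and 10.4 FPKM with mock and 35.4, 37.5 and 37.6 FPKM with estradiol, and AT2G41190, an amino acid transporter family member, measured 3.01, 3.41 and 2.98 FPKM with mock and 10.2, 11.96 and 12.2 FPKM with estradiol. In these 3 genes the lowest estradiol value was over 2 times the highest mock value. ABCG19, an ABC transporter known for conferring kanamycin resistance, measured 6.54, 7.32 and 6.59 FPKM with mock and 17.2, 18.6 and 17.7 FPKM with estradiol. MCA2, a membrane protein linked to calcium influx on mechanical stress, measured 1.05, 1.16 and 1.04 FPKM with mock and 3.29, 3.52 and 3.25 FPKM with estradiol.

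The 4 genes with ubiquitin ligase domains spanned differences from 1.01 to 1.82. AT4G03965, a RING-type protein, measured 0.85, 0.63 and 0.83 FPKM with mock and 4.85, 5.53 and 5.42 FPKM with estradiol, a difference of 1.82 ± 0.09. Its mock values were all under 1 FPKM. FBS4, an F-box protein, measured 6.91, 6.33 and 6.11 FPKM with mock and 13.9, 15.3 and 14.2 FPKM with estradiol. AT4G17680, annotated as an S-ribonuclease binding protein, had a difference of 1.14 ± 0.07, and AT3G23880, an F-box protein, 1.01 ± 0.04.

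Enzymes and proteins with other domains made up 8 members. CAD7, a cinnamyl alcohol dehydrogenase family enzyme with the RefSeq symbol ELI3-1, measured 17.3, 16.95 and 14.3 FPKM with mock and 37.7, 40.9 and 41.1 FPKM with estradiol. CYP705A14P, annotated as a cytochrome P450 pseudogene, measured 0.42, 0.58 and 0.12 FPKM with mock and 1.76, 1.99 and 1.9 FPKM with estradiol. The pseudogene was thus near 0 with mock and still low with estradiol. AT2G36690 (an oxoglutarate-dependent oxygenase), AT1G76600 (annotated as poly polymerase), AT1G50590 (a cupin), AT1G60110 (a mannose-binding lectin) and AT5G66440 (annotated as a tRNA methyltransferase subunit) had differences of 1.35, 1.23, 1.11, 1.08 and 1.01. The eighth, AT1G55980, is described with its copy below.

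The 11 members with no known function had differences from 1.001 to 2.12. AT1G12845 measured 8.82, 8.13 and 8.84 FPKM with mock and 39.4, 42.2 and 40.7 FPKM with estradiol, a difference of 2.12 ± 0.06, and its estradiol values lay within a narrow band. AT1G71470 measured 0.01, 0 and 0 FPKM with mock and 2.06, 3.09 and 1.97 FPKM with estradiol, a difference of 1.73 ± 0.18. With 2 mock libraries listed at 0, no fold is given for it. AT3G47295 measured 24.4, 25.4 and 26.6 FPKM with mock and 72.8, 82.6 and 70.4 FPKM with estradiol, AT5G15190 0.98, 1.2 and 1.11 FPKM with mock and 5, 6.88 and 4.43 FPKM with estradiol, and AT4G27810 0.3, 0.59 and 0.33 FPKM with mock and 2.32, 4.1 and 2.74 FPKM with estradiol. The remaining 6 were AT5G67020, AT3G14760, AT3G14560, AT3G48490, AT4G08555 and AT1G11850, with differences of 1.37, 1.21, 1.11, 1.1, 1.03 and 1.001. AT4G27810 is the member in which estradiol 2 most exceeded the other estradiol libraries.

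**Figure D2:**
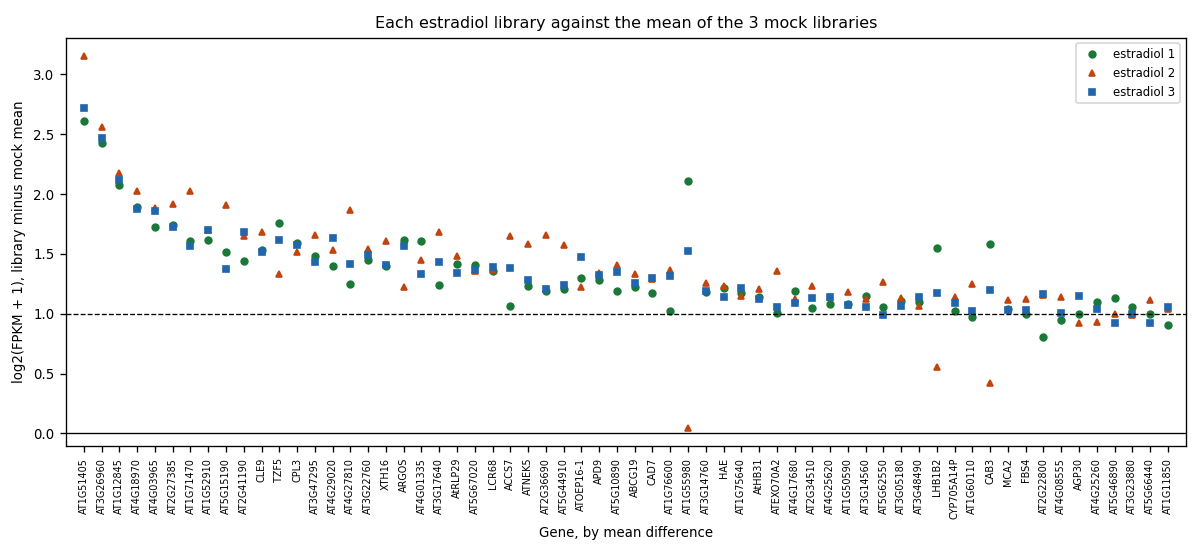
For each gene, log2(FPKM + 1) in estradiol 1, 2 and 3 minus the mean of the 3 mock libraries, ordered by mean difference; the dashed line marks 1. Estradiol 2 is the highest library in 38 of 62 genes but falls far below the other estradiol libraries in AT1G55980, CAB3 and LHB1B2.

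Estradiol 2 held the highest of the 3 estradiol values in 38 of 62 members (61.3%), against 37.5% of all kept genes. Estradiol 1 held the lowest in 31 (50%), against 35.6%. The median coefficient of variation between estradiol libraries was 7.15% over the members and 4.75% over all kept genes, and between mock libraries 6.34% and 4.61%. Estradiol 1 and 3 were the libraries with the lower estimated depth, and the part of depth in this order was not tested.

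AT1G55980, CAB3 and LHB1B2 stood apart, with estradiol 2 at least 0.5 (log2) below the mean of estradiol 1 and 3, which held for 72 of the 19134 kept genes. AT1G55980, an oxidoreductase, measured 7.06, 7.6 and 7.6 FPKM with mock and 35.4, 7.71 and 23.2 FPKM with estradiol, so estradiol 2 was barely above mock. Without estradiol 1 its difference was 0.79 and without estradiol 2 it was 1.82, and it alone moved by over 1.5 times among the 54 members with a value in all 6 fits that leave out 1 library. CAB3 and LHB1B2 encode chlorophyll-binding proteins of the light-harvesting antenna of photosystem II. CAB3, the most abundant member, measured 685, 741 and 815 FPKM with mock and 2239, 997 and 1706 FPKM with estradiol, and LHB1B2 measured 217, 249.8 and 301 FPKM with mock and 746, 374 and 573 FPKM with estradiol. In both, estradiol 1 was highest and estradiol 2 lay closest to mock.

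AT1G55980, CAB3 and LHB1B2 have near-identical copies or overlapping transcripts, and how the authors' quantification divided fragments between copies is not given in the sources used here, so their values are uncertain. Of the 50-base stretches of the transcript, 67.0% of those in AT1G55980 and 10.7% of those in CAB3 occur in another gene on either strand. In LHB1B2 the share is 100%, and an annotated noncoding transcript overlaps this gene. In contrast, 48 of the 61 members with a matched locus share none, while 9 share over 10%. Besides AT1G55980, CAB3 and LHB1B2, these are AT3G47295 (34.3%), AT5G46890 (26.8%), AT1G52910 (19.3%), AT3G22760 (18.6%), AT4G25260 (17.4%) and AT4G18970 (12.6%). Their values may carry the same uncertainty. The copies set beside AT1G55980, CAB3 and LHB1B2 were chosen after their values were seen. AT1G56000, whose protein is identical over the aligned part to that of AT1G55980, measured 11.1, 11.7 and 11.7 FPKM with mock and 11.8, 12.7 and 11.7 FPKM with estradiol, with no library standing apart. The sum of the pair was 18.1 to 19.3 FPKM with mock and 47.1, 20.4 and 34.96 FPKM with estradiol. Summed over CAB1, CAB2, CAB3, LHB1B1 and LHB1B2, the level was 5552 to 6466 FPKM with mock and 12084, 6686 and 9365 FPKM with estradiol. Both sums were thus highest in estradiol 1 and lowest of the 3 estradiol libraries in estradiol 2. Within them, LHB1B1 did not have that order, at 145, 197 and 216 FPKM with mock and 274, 255 and 243 FPKM with estradiol, nor did AT1G56000. CAB2 itself measured 198, 221 and 229 FPKM with mock and 3399, 215 and 1800.4 FPKM with estradiol. Of the genes set aside by name, AtHsp90.4 had the same order, at 39.6, 40 and 38.8 FPKM with mock and 434, 48.7 and 281 FPKM with estradiol, as did ORTH4 at 1.16, 1.35 and 1.18 FPKM with mock and 14.5, 2.22 and 9.53 FPKM with estradiol and TUA3 at 223, 221 and 219.7 FPKM with mock and 806, 238 and 553 FPKM with estradiol.

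**Figure D3:**
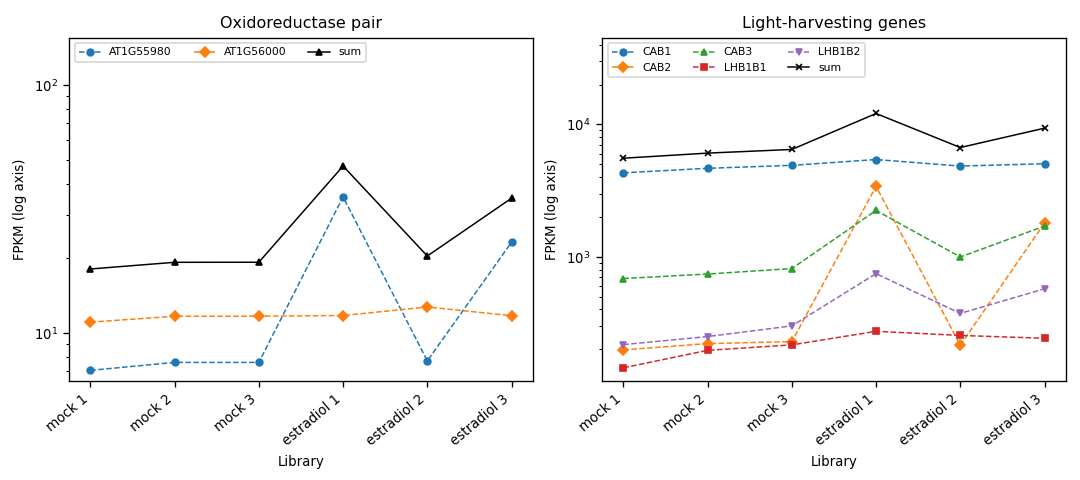
FPKM (log axis) in each of the 6 libraries for AT1G55980 and its copy AT1G56000 (left) and for 5 light-harvesting genes (right), with the sum of the copies in black. Both sums are highest in estradiol 1, at 47.1 and 12084 FPKM, and lie near mock in estradiol 2, at 20.4 and 6686 FPKM.

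The members had features that the rule did not use. An endomembrane annotation was present for 15 of the 54 members with a descriptive note in RefSeq (27.8%), against 1585 of 16045 kept protein-coding genes with one (9.88%). A single exon was annotated for 23 of 61 (37.7%), against 17.6%. The encoded proteins were shorter, with a median of 300.5 residues against 384, and so were the transcripts, at 1311 against 1721 bases. GC content was 40.6% against 41.3%. These are descriptions without a test, and the minimum level and the threshold both shaped which genes could enter.

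**Figure D4:**
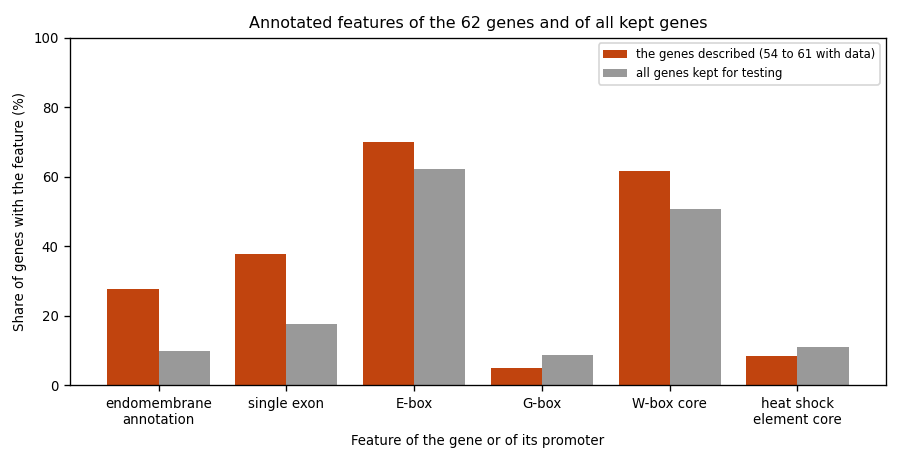
Share (%) of the described genes (orange) and of all kept genes (grey) with an endomembrane annotation, a single exon, or each of 4 promoter motifs in the window of 250 bases before to 50 after the start. Endomembrane annotation (27.8% against 9.88%) and single-exon genes (37.7% against 17.6%) differ most.

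To see whether relatives of these genes moved too, each member's closest paralog by protein sequence was read from the same fit. Of 60 proteins compared, 48 had such a paralog, with identities from 26.0% to 100% and a median of 63.0%. No paralog was itself a member, and 2 were genes set aside by name: AtRLP17 (TOO MANY MOUTHS), the closest to AtRLP29 at 36.9% identity, and POLAR, the closest to AT5G10890 at 29.6%. Their differences were 2.2 and 2.64. Of the 46 others, 2 had no row matched in the table, and 36 of the remaining 44 were kept, and by limma with Benjamini-Hochberg adjustment 14 rose (38.9%, against 23.3% of all kept genes) and 3 fell. The median difference of the 36 was 0.14, against 0.05 for all kept genes. Paralogs that are not members could not reach 1 with separated groups, so their differences are not compared with those of the members.

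Several of the paralogs that rose pair with members described above. ATTCX2, a CXC-domain protein paired with AT3G22760, rose by 0.84 (SE 0.0412, adjusted p = 7.76e-06), with 8.34 ± 0.305 FPKM with mock and 15.7 ± 0.369 FPKM with estradiol (SD, n = 3). CLE10, the peptide paired with CLE9, rose by 0.55 (SE 0.0739, adjusted p = 0.00103), with 1.16 ± 0.127 FPKM with mock and 2.17 ± 0.211 FPKM with estradiol. In both, every estradiol value lay above every mock value. ARL, the ARGOS-like gene, rose by 0.55 (SE 0.109, adjusted p = 0.00607), and MCA1, the relative of MCA2, by 0.31 (SE 0.0415, adjusted p = 0.00103). AT1G21010, paired with AT1G76600, rose by 0.81 (SE 0.0727, adjusted p = 1.49e-04), and AT5G47050, paired with AT4G17680, by 0.68 (SE 0.0693, adjusted p = 2.85e-04). These 4 pairs come from 4 different function groups. AGP31, XTH15 and ATEXO70A1, the relatives of AGP30, XTH16 and ATEXO70A2, rose by 0.28, 0.25 and 0.19. AT5G46900, a lipid-transfer type relative that shares 22.5% of its 50-base stretches with another gene, rose by 0.78 (SE 0.171, adjusted p = 0.00939). The shares for ATTCX2 and XTH15 are similar, at 21.9% and 28.8%, so the levels of these paralogs are also less certain. AT5G53030, AT2G43120, AT4G37790 and AT4G36180 rose by 0.65, 0.39, 0.3 and 0.14. AT5G53030 stayed under 1 FPKM in every mock library. It thus met the FPKM minimum through its estradiol values alone, and it is counted among the 14 paralogs that rose.

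In contrast, 3 paralogs fell. AT3G60290, paired with the oxygenase AT2G36690, changed by -0.51 (SE 0.0738, adjusted p = 0.00141). AT5G62350, the relative of AT4G25260, changed by -0.34 (SE 0.0324, adjusted p = 2.06e-04). AT5G41050, paired with AT3G26960, the member with the second largest difference, changed by -0.24 (SE 0.0635, adjusted p = 0.0199). In 2 of the 3 pairs the partner belongs to the cell wall and secreted group. The calls of AT4G36180 and AT5G41050 were lost under 8 and 2 of 15 alternative settings.

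**Figure D5:**
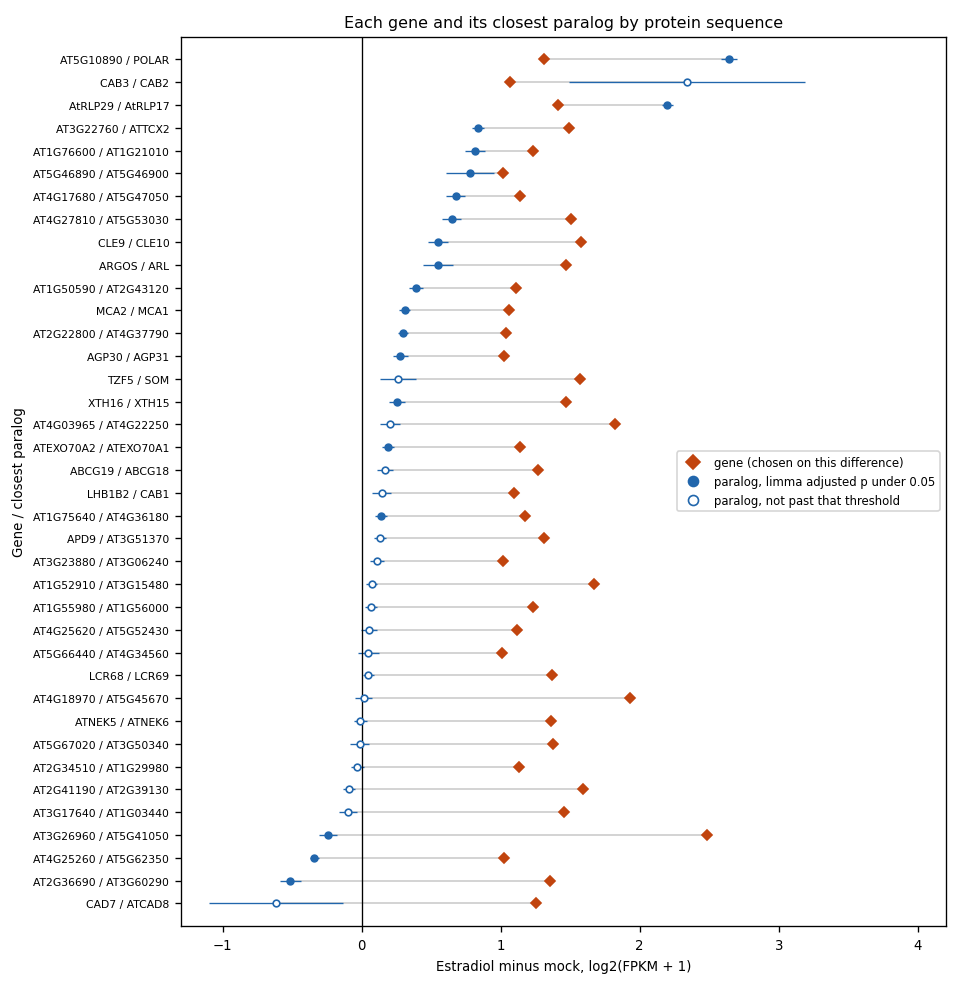
Difference in log2(FPKM + 1) of each gene (orange diamonds) and of its closest paralog (blue circles with SE, filled where the limma adjusted p is under 0.05), ordered by the paralog. By the rule, a paralog that is not a member can exceed 1 only if it was set aside by name (POLAR, AtRLP17) or its groups overlap (CAB2); the 36 kept paralogs not set aside by name, CAB2 among them, have a median of 0.14.

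For 23 product names that 5 or more further kept genes carry, 755 such genes were tested, and 176 rose (23.3%, as of all kept genes) and 108 fell (all kept genes, 12.9%). The split was 135 and 120 after quantile normalization and 118 and 130 after median-of-ratios scaling, so which direction held more genes depended on the scaling. Without mock 3 it was 114 and 102. Of 12 other PLAC8 family genes, 8 rose and 1 fell (5 and 1 after quantile, 4 and 1 after median-of-ratios scaling), and of 5 other CXC-domain genes 3 rose under each scaling. Of these CXC-domain genes, AT2G20110 passed in the main fit but stayed under 1 FPKM in every mock library. It thus met the FPKM minimum through its estradiol values alone, and its call was lost under 1 of 11 alternatives. Of 185 other RING/U-box genes 51 rose and 17 fell (36 and 17, and 35 and 17). Among 40 other GDSL lipases 4 rose and 14 fell, and AT1G29660 changed most, by -1.35 (SE 0.06595, adjusted p = 7.65e-06). Among 17 other Pollen Ole e 1 family genes 1 rose and 4 fell. In these 2 families, which hold 4 members, more genes fell than rose under each of the 3 scalings. In the invertase and pectin methylesterase inhibitor family, 4 of 21 others rose and 6 fell, and AT1G23205 changed by -1.79 (SE 0.0784, adjusted p = 5.76e-06). Of 16 other leucine-rich receptor-like kinases 5 rose and 2 fell. Of those past the threshold AT3G28040 changed most, by 0.55 (SE 0.0294, limma adjusted p = 1.21e-05). CLV1, the receptor of the shoot meristem peptide CLV3, rose by 0.37 (SE 0.0672, adjusted p = 0.00425).

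Genes next to the members on the chromosome were also read. The sets of paralogs, product families and neighbours share genes, such as MCA1 and AT5G46900, which are in each of them. Their counts are therefore not independent. Of 122 neighbouring positions none held a member, and 78 other neighbours were kept, of which 23 rose (29.5%, against 23.3% of all kept genes) and 10 fell, with a median difference of 0.05, as over all kept genes. The split was 20 and 17 after quantile normalization and 18 and 17 after median-of-ratios scaling. AT4G25250, beside AT4G25260 and of the same inhibitor family, rose by 0.79 (SE 0.105, adjusted p = 9.73e-04). LCR70, beside LCR68, rose by 0.55 (SE 0.154, adjusted p = 0.0245), a call lost under 6 of 14 alternatives. TOPII (topoisomerase II, which untangles replicated DNA), beside AT3G23880, rose by 0.54 (SE 0.0677, adjusted p = 7.28e-04). AT5G62560 and AT3G23740 rose by 0.5 and 0.54. AT3G20850, AT1G14430 and CFI, an enzyme of flavonoid synthesis, changed by -0.72, -0.58 and -0.53. AT3G20850 stayed under 1 FPKM in every estradiol library, so it met the FPKM minimum through its mock values alone. At 12 members a neighbour overlaps the gene, and whether the authors counted by strand is not given in the sources used here, so their values may include fragments of the neighbour.

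Markers of other responses and cell types were measured beside these genes. The shares of all kept genes to read them against are 23.3% higher and 12.9% lower. Of 9 xenobiotic response genes, which plants raise on exposure to foreign chemicals, 4 rose: CYP81D8 by 0.77 (SE 0.147, adjusted p = 0.00535), CYP81D11 by 0.72 (SE 0.102, adjusted p = 0.00135), ATOPR1 by 0.62 (SE 0.115, adjusted p = 0.00457) and ATGSTU7 by 0.45 (SE 0.118, adjusted p = 0.0197). Their summed level ran from 177 to 265 FPKM with mock and from 265 to 333 FPKM with estradiol. CYP81D8 misses the FPKM minimum when an estradiol library is left out. Without estradiol 2, or without estradiol 3, 2 of the 8 genes still tested passed. The call of ATGSTU7 was lost under 3 of 15 alternatives. Of 6 root hair markers 5 fell and RHD6 rose, with sums of 126 to 141 FPKM with mock and 77.2 to 81.1 FPKM with estradiol. Of 6 endodermis markers 4 rose (the call of CASP4 was lost under 5 of 14 alternatives), with sums of 32.0 to 33.2 and 39.2 to 42.0 FPKM. Of 7 guard cell markers the row named KAT2 rose (lost under 1 of 14 alternatives), with sums of 21.1 to 22.4 and 22.2 to 24.4 FPKM. The rows named KAT1 and KAT2, both in this list, could not be tied to their loci with certainty, so they may not be the guard cell genes. Of 5 kept xylem markers 0 passed by limma, and 0 at an unadjusted p under 0.05 (1 fell after quantile and 2 after median-of-ratios scaling), with sums of 78.1 to 80.6 and 75.9 to 79.1 FPKM for all 6, and of 5 phloem markers ATPP2-A1 passed, a call lost under 8 of 15 alternatives, with sums of 119 to 122 and 121 to 131 FPKM. Of 3 mesophyll markers RBCS2B fell and the others were RBCS1A, which did not pass, and CAB3, itself a member, with sums of 13537 to 14675 and 12903 to 13738 FPKM. No marker was at 0 in all libraries, and the part of these responses and cell types in the members' differences was not tested.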

How the data were processed

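Per the labels, the libraries were stranded and sequenced from both ends, with 50-base reads. The authors deposited FPKM with 1 row per gene name; the submitters' processing notes name TopHat2 2.0.13, DESeq2 and the TAIR10 build, with no role. One further column (1 in all) of no stated sample was not used. Names were matched to RefSeq loci of TAIR10.1 (96.8% of rows), which gave products, exons, coordinates and promoters. Kept rows had FPKM of at least 1 in at least 3 libraries. Tests used limma 3.58.1 in R 4.3.3 on log2(FPKM + 1), with group as the term and a mean-variance trend, two-sided, Benjamini-Hochberg over 19134 rows. This scale understates changes of low genes. Paralogs are the best blastp 2.17.0 hits (E at most 1e-10, at least 50% of the protein). Limma and the depth estimate were tested on simulated data. The members and lists were chosen with earlier results of these data known; function groups were assigned by hand with the members in view. Members named with every library are the 15 largest differences, the 10 highest levels and those with symbols in the table. AT3G22760, AT5G10890, AT4G27810 and AT1G55980 are also given that way and were added after their values were seen. Other genes are those past the threshold, the strongest in some families, and neighbours differing by at least 0.5. The promoter of 1 of the 6 genes with the largest differences is not reported here. Replicate numbers were not used to pair the samples in the main test. Python 3.11.15, pandas 2.3.3, numpy 2.4.6 and matplotlib 3.10.9 were used.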

Additional observations from a re-analysis of the deposited data

How the results depend on the processing

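The number of genes meeting the rule was 105 with a pseudocount of 0.1, which includes all 62, and 77 with 0.5. It was 47 with a minimum of 5 FPKM, 54 after quantile normalization, 52 after median-of-ratios scaling and 53 to 63 with 1 library left out. In every one of the 6 fits without a library, 42 members met the rule. Of the other 20, 8 have no value without an estradiol library, since too few libraries then reach the FPKM minimum, and 12 missed the rule in at least 1 fit. Genes past the threshold numbered 5290 to 5764 with 1 library left out and 8982 at an unadjusted p under 0.05. With the replicate number as a block they numbered 6038. The deviations of same-numbered samples correlated at -0.006, 0.047 and -0.002, so no shared effect of the number was seen in the levels. Whether same-numbered samples were handled together cannot be told from this. Scaling moved the median difference of all genes by -0.03 (quantile) and -0.05 (median of ratios). Total counts of paralogs, neighbours and same-product genes past the threshold stayed within 1.5 times under every alternative run, but not every split did: neighbours that fell went from 10 to 17 under both scalings, and the planned same-product set, uncharacterized proteins included, went from 377 higher and 263 lower to 279 and 306 (quantile) and 245 and 336 (median of ratios). The alternatives for the named families alone, and the scaling of marker lists other than the xenobiotic one, were added after seeing the data. The xenobiotic count ranged from 2 to 4 with 1 library left out, with 8 or 9 genes tested. With kept genes as the background, promoter shares were 62.4% for CANNTG, 8.63% for CACGTG and 11.1% for GAANNTTC. No difference of a named gene changed sign; 68 of 1228 combinations of a further gene and a setting lost the call. Depth is estimated, so no counting intervals are given.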
